A study of Homo sapiens with 6 samples.

Results

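Cytosolic ribosomal protein genes were followed as a group of 75 genes, of 43317 gene names on a 2-colour array, and they were read by 158 of its 58201 gene probes. They were taken by their gene name on the array: every name made of RPL or RPS, a number and at most one closing A or X, plus RPLP0, RPLP1 and RPLP2. RPSA belongs to the same rule, and it and RPL10 were not analysed here. Of the 75 genes, 45 code for proteins of the large subunit and 30 for proteins of the small subunit. The rule uses names and no measured value, but it was set with earlier results of these data known. A probe was tested if Cy3 or Cy5 stood well above background on 3 or more of the 6 arrays, and 153 of the 158 probes and all 75 genes met this. Each gene was then read through its brightest probe. All 75 names are current symbols in the RefSeq gene table (GRCh38.p14).

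The small subunit of a ribosome holds the messenger RNA and matches it to transfer RNAs, and the large subunit joins the amino acids. Each subunit is a core of ribosomal RNA covered by proteins that must be supplied in matched amounts, and their messenger RNAs are among the most abundant of a dividing cell. Most of these messages start with a cytosine followed by a run of pyrimidines, through which mTOR signalling sets how strongly they are translated.

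The cells were 22RV1, an established prostate cancer line that the labels call SPINK1 positive. Stable lines carried the lentiviral vector pLemiR-338-5p or pLemiR-421, and the control line carried pLemiR-RFP, with a red fluorescent protein in place of the microRNA (miRNA). All lines thus share the parent cells, the vector backbone and culture with puromycin, the drug that selects for the vector. Each array set RNA of a miRNA line, in Cy5, against control RNA, in Cy3, and dyes were never swapped. In every ratio, share or call against control, a dye effect thus cannot be told apart from a difference of the line. The miR-338-5p line had 3 arrays (replicates 1, 2 and 3) and so had the miR-421 line (a sample labelled as a pool, and replicates 1 and 2). No label says what was pooled, whether replicates were separate cultures or clones, or whether 1 control culture served every array, so p-values measure the spread between these samples, which may be technical. RNA was given poly(A) tails before priming with oligo-dT.

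Every value below is a log2 ratio of miRNA line over control unless called otherwise, so 1 is a 2-fold higher signal, and errors are SDs over 3 arrays. Ratios compare a gene with the rest of its array, and fewer cells expressing a gene cannot be told apart from less RNA per cell. Of the markers expected in 22RV1, KRT8, KRT18, HOXB13 and KLK3 were well above background in control RNA on 6 of 6 arrays. They did not stay level: under loess and limma KRT8 was lower for miR-338-5p at -1.31 ± 0.08 (adjusted p 0.00415) and at -0.28 ± 0.20 for miR-421 (0.0625). KRT18 was higher for miR-421 at 0.97 ± 0.32 (0.0142) and lay below 0 for miR-338-5p. HOXB13 was at -0.90 ± 0.44 (0.0579) and -0.51 ± 0.47 (0.151), and KLK3 at 1.41 ± 1.104 (0.0838) and 1.13 ± 0.46 (0.0941). Their part in the results was not tested. Between 41.9% and 48.3% of gene spots were well above background in either dye, and 0 were saturated. Ribosomal protein spots gave 9.71% to 11.9% of the summed signal of all gene spots in Cy3 and 12.8% to 16.8% in Cy5, and their share was higher in Cy5 on 6 of 6 arrays. The largest step, from 10.2% to 16.8%, was on miR-338-5p replicate 2, and the smallest, from 11.4% to 12.8%, on miR-421 replicate 2.

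The mature miRNAs that set the lines apart are shown first, with the seed, bases 2 to 8, in capitals (RefSeq, GRCh38.p14). The seeds differ, so pairing through one is not shared by the other.
hsa-miR-338-5p: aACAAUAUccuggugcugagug
hsa-miR-421: aUCAACAGacauuaauugggcgc
The probes that follow read members that stood high or low, or whose probes differed. Those of RPLP0, RPS24 and RPL11 are the ones whose values stand for the gene, and those of RPL23, RPS2 and RPS18 are dimmer probes, compared with the brightest further on. They are 60-base stretches, each with at least 1 reading frame free of stop codons, of RPLP0, RPL23, RPS2, RPS18, RPS24 and RPL11, given 5′ to 3′ with hg19 positions as in the deposited files, and in lower case throughout because no single base is singled out.
RPLP0 probe A_32_P184796, chr12:120635142-120635201, minus strand: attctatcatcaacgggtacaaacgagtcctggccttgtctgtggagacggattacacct
RPL23 probe A_32_P30710, chr17:37006644-37006703, minus strand: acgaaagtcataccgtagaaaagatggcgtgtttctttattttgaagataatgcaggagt
RPS2 probe A_24_P135902, chr16:2012861-2013159, minus strand: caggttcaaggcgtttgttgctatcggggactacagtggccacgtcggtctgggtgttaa
RPS18 probe A_23_P214666, chr6:33243800-33243968, plus strand: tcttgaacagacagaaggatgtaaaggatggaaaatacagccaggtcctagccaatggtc
RPS18 probe A_33_P3385488, chr6:33240433-33240492, plus strand: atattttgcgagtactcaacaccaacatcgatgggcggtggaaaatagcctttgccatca
RPS24 probe A_23_P1206, chr10:79795371-79795430, plus strand: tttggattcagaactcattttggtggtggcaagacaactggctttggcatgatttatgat
RPL11 probe A_23_P62605, chr1:24021173-24021232, plus strand: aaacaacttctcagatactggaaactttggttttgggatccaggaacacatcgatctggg
The RPS2 probe and the first RPS18 probe span more genome than their 60 bases, so each joins separate stretches of the gene.

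What the group did against control depended on how the arrays were normalized. With the spot signals normalized by loess, which fits and subtracts a smooth trend with brightness within an array, the median of the 75 genes was 0.32, 0.59 and 0.15 on miR-338-5p replicates 1, 2 and 3, and 0.32, 0.27 and 0.13 on the miR-421 pool, replicate 1 and replicate 2. All 6 medians were above 0, and the median of all tested genes lay between -0.012 and 0.01. The ratio computed by the image software gave member medians of 0.086, 0.26 and 0.008 in the miR-338-5p line and of 0.16, -0.25 and -0.15 in the miR-421 line. The deposited table of the authors gave 0.022, 0.21 and -0.037, and 0.13, -0.17 and -0.15. Thus the miR-338-5p arrays were above 0 in 5 of their 6 deposited readings, while miR-421 replicates 1 and 2 turned from above 0 to below 0. The medians of all tested genes were -0.015, 0.012 and 0.038, then 0.037, 0.091 and 0.064, in the image software's ratio. In the authors' table they ran from -0.016 to 0.10. On miR-338-5p replicate 3 the members thus lay below the median of all genes in both deposited readings, although 1 of these was above 0. Centring each array on its median with no loess gave 0.29 to 0.77 on miR-338-5p arrays and 0.48 to 0.85 on miR-421 arrays, with the median of all genes at -0.14 to 0.05.

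**Figure D1:**
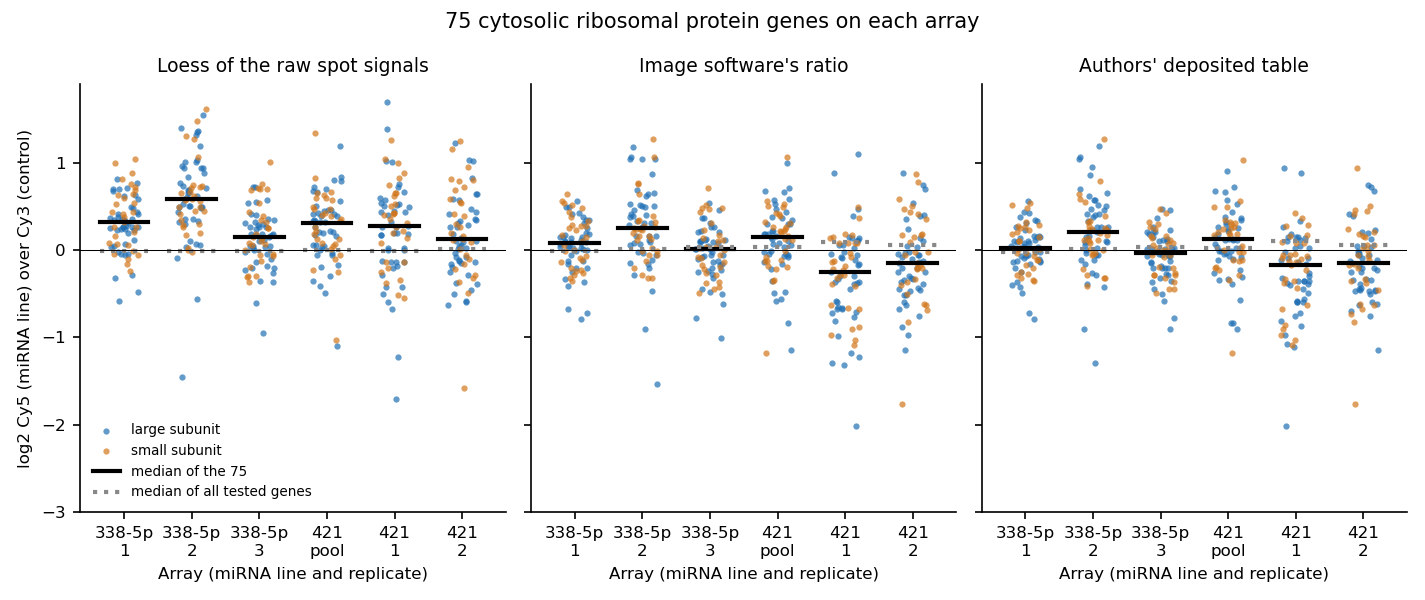
Log2 ratio over control (vertical axis) of the 75 ribosomal protein genes, 1 point per gene, on each of the 6 arrays under 3 ways of scaling; black bars are medians of the 75 and dotted grey bars medians of all tested genes. Under loess all 6 black bars lie above 0, and under the image software's ratio and the authors' table those of miR-421 replicates 1 and 2 lie below 0.

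Within an array the genes were far from uniform. The SD over the 75 genes was 0.33, 0.48 and 0.34 on the miR-338-5p arrays and 0.41, 0.56 and 0.50 on the miR-421 arrays, each at least as large as that array's median except on miR-338-5p replicate 2. Genes above 0 numbered 61, 70 and 52 of 75 for miR-338-5p, and 59, 52 and 48 of 75 for miR-421.

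In the miR-338-5p line, 20 of the 75 genes were higher than control and 1, RPL22, was lower (loess, limma with Benjamini-Hochberg adjustment over all probes, adjusted p under 0.05). Over all 21694 tested genes 3.98% were called higher and 5.25% lower. The median of the 75 was 0.39, with values from -0.99 to 1.11, and 65 of the 75 lay above 0, while the median of all genes was -0.001. With the ratio of the image software no member was called higher (9 at an unadjusted p under 0.05), 1 was called lower, and the median was 0.12. Under the authors' table none was called either way (4 higher and 3 lower at an unadjusted p under 0.05), and the median was 0.07. Of all genes, these readings called 2.16% and 2.53% higher and 1.8% and 2.01% lower. How many of all genes passed at an unadjusted p in these readings was not counted. The loess count of 20 became 5 when miR-338-5p replicate 1 or replicate 2 was left out and 8 when replicate 3 was. It was 12 without the miR-421 pool and 10 without miR-421 replicate 2, arrays that enter through the shared estimate of the spread. Calls over all genes dropped too, from 3.98% higher to 0.844%, 1.01% and 0.71% without miR-338-5p replicates in that order, and to 1.84% and 1.27% without those miR-421 arrays.

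In the miR-421 line, 22 of the 75 genes were higher than control and 5 lower, RPS24, RPL22, RPL17, RPS13 and RPL27A. Over all 21690 tested genes 10% were called higher and 12.6% lower. Of the other genes with spots in the brightest 2%, where 72 members lay, 38.8% were called higher and 6.65% lower. The median was 0.27, with values from -1.05 to 1.37, and 53 of the 75 lay above 0. With the ratio of the image software 4 members were called higher and 6 lower, with a median of -0.066, and under the authors' table also 4 and 6, with a median of -0.10. Over all genes these readings called 9.4% and 9.36% higher and 10.1% and 10.3% lower, so the members were called no more often than genes in general. The same 4 genes, RPL23, RPLP0, RPLP1 and RPS2, were higher under all 3 readings, and RPL17, RPL22, RPL27A, RPS13 and RPS24 were lower under all 3. Without miR-421 replicate 2 the loess counts by limma became 10 higher and 0 lower (6 lower at an unadjusted p under 0.05), while all genes went to 0.987% and 1.44%. Without the pool they were 16 and 0 (9 lower at an unadjusted p under 0.05), beside 6.48% and 6.94% of all genes. Without miR-421 replicate 1 they were 15 and 2, beside 5.17% and 6.29%.

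**Figure D2:**
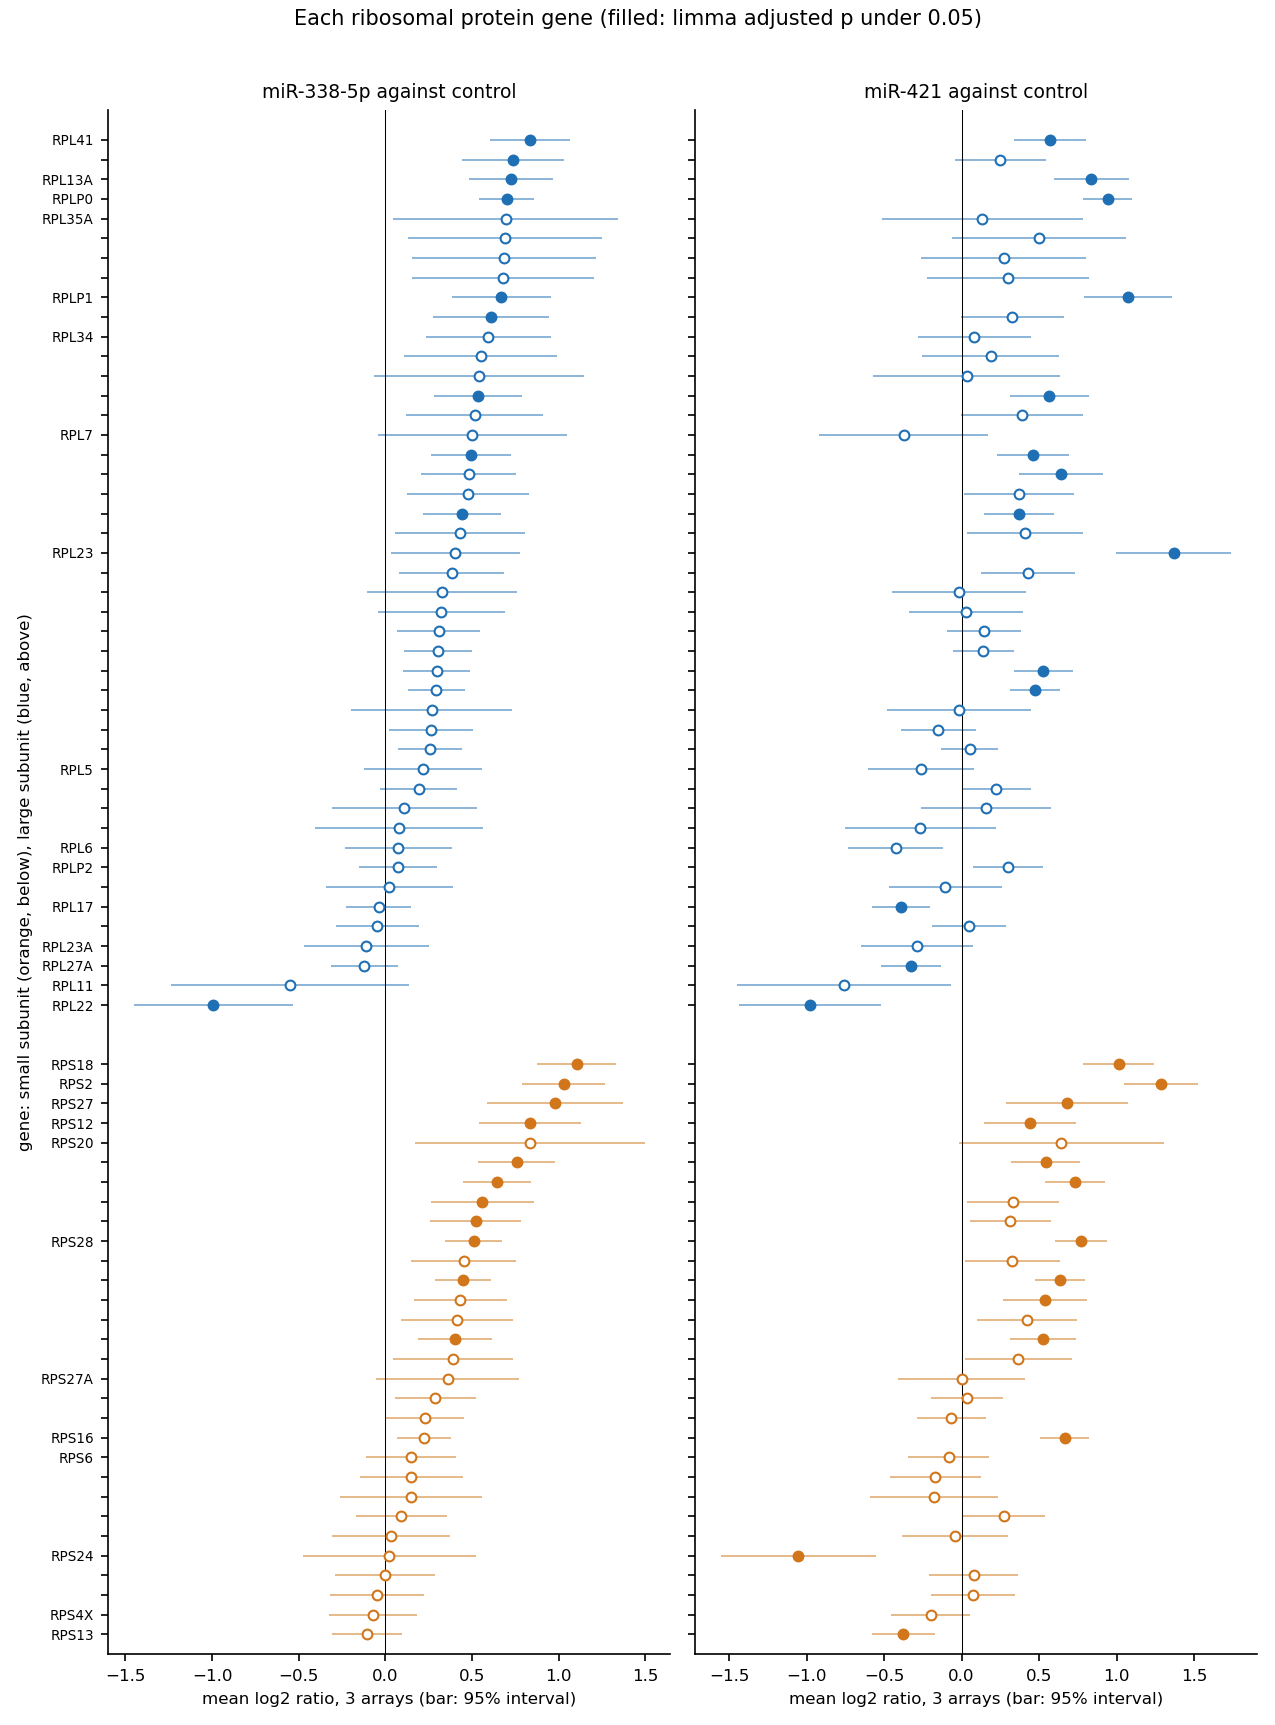
Mean log2 ratio over control of each of the 75 genes under loess (horizontal axis, 3 arrays, bar for the 95% interval from limma), large subunit genes above in blue and small subunit genes below in orange, filled where the adjusted p was under 0.05; names are given for the genes picked by rank or role. RPS18 at 1.11 and RPS2 at 1.03 lead the miR-338-5p panel, RPL23 at 1.37 and RPS2 at 1.29 the miR-421 panel, and RPL22 is filled below 0 in both.

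Both lines were set against control RNA in the same dye, so the lists share that reference and are given side by side only. Under loess, the genes called higher for miR-338-5p included RPL3, RPL9, RPL13A, RPL26, RPL31, RPL37A, RPL41, RPS10, RPS14, RPS19 and RPS21, besides those described one by one. Those called for miR-421 included RPL3, RPL9, RPL13A, RPL18, RPL28, RPL37A, RPL41, RPS10 and RPS19.

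The miRNA lines were then compared with each other, so that the control drops out as far as it was the same on every array. No member differed (0 higher and 0 lower at a limma adjusted p under 0.05), against 0.0138% higher and 0.0323% lower over all genes. At an unadjusted limma p under 0.05, 7 members were higher and 5 lower. That is 12 of the 75, beside 3102 of all 21690 tested genes. The median difference, miR-338-5p minus miR-421, was 0.16, and it was -0.12 when arrays were centred on their medians. The genes farthest apart were RPS24 at 1.08 (adjusted p 0.217), RPL7 at 0.88 (0.318), RPL35A at 0.56 (0.568) and RPL34 at 0.51 (0.368) on one side. On the other were RPL23 at -0.97 (0.172), RPS16 at -0.44 (0.152), RPLP1 at -0.40 (0.366) and RPS28 at -0.26 (0.327). Over all alternatives the adjusted p of RPS24 ranged from 0.143 to 0.484 and that of RPL23 from 0.127 to 0.449. The 95% intervals were 1.08 ± 0.71 for RPS24 and -0.97 ± 0.525 for RPL23.

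The stalk of the large subunit, built from RPLP0, RPLP1 and RPLP2, recruits the elongation factors. RPLP0, its base, read 0.71, 0.67 and 0.72 on the miR-338-5p arrays and 0.79, 1.02 and 1.03 on the miR-421 arrays. It was called higher in both lines, at 0.70 ± 0.026 (limma adjusted p 0.00702) and 0.94 ± 0.14 (0.00254), 1.63-fold and 1.92-fold, and it had the smallest spread of the named genes for miR-338-5p. RPLP1 read 0.82, 0.62 and 0.57, then 0.81, 1.39 and 1.02, a mean of 0.67 ± 0.13 (0.0278) and of 1.07 ± 0.30 (0.00576). RPLP2, the partner of RPLP1, stood apart at 0.12, 0.11 and -0.02, then 0.04, 0.45 and 0.41, and passed in neither line (0.071 ± 0.078, adjusted p 0.683, and 0.30 ± 0.23, 0.0665). For RPLP0 and RPLP1 the miR-421 call held under 18 of 18 alternatives, with adjusted p from 0.00192 to 0.0475 and from 0.00178 to 0.0487. Their miR-338-5p calls were kept under 15 and 9 of 18 alternatives (adjusted p 0.00663 to 0.216 and 0.0132 to 0.184), and the image software's ratio, at 0.45 (0.156) and 0.40 (0.184), was among those that lost them.

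RPL23, a large subunit protein that can also bind MDM2, had the highest member ratio of the miR-421 line. Its miR-421 arrays read 1.19 (pool), 1.70 and 1.23, and its miR-338-5p arrays 0.48, 0.69 and 0.04. The groups did not overlap. The miR-421 mean was 1.37 ± 0.28 (limma adjusted p 0.00603, a 2.58-fold higher signal), and it passed under 18 of 18 alternatives, from 0.86 to 1.77 (adjusted p 0.00282 to 0.0468). The miR-338-5p mean was 0.40 ± 0.33 (adjusted p 0.155). Its other probe, printed above, had the same order, at 1.03 for miR-421 (adjusted p 0.0105) and 0.26 for miR-338-5p (0.334).

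RPL5 and RPL11 carry the 5S ribosomal RNA into the large subunit and, when free, bind MDM2, the ligase that keeps p53 low. RPL11 was below 0 on 6 of 6 arrays, at -0.48, -0.56 and -0.61 for miR-338-5p and at -0.41, -1.71 and -0.16 for miR-421. Neither mean passed (-0.55 ± 0.061, limma adjusted p 0.275, and -0.76 ± 0.84, adjusted p 0.105). The fit shares 1 spread over both lines, and miR-421 replicate 1 lay far from the pool and replicate 2. With miR-421 replicate 1 left out, the miR-338-5p value reached an adjusted p of 0.0159, the lowest of a range up to 0.508. It passed under 1 of 18 alternatives. The fit on the miR-338-5p arrays alone, which no miR-421 array enters, was among those where it did not pass. RPL5 read 0.37, 0.49 and -0.20, then -0.17, -0.42 and -0.19, and passed in neither line (0.22 ± 0.37, adjusted p 0.379, and -0.26 ± 0.14, adjusted p 0.225).

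RPL22 was the member called lower in both lines. This large subunit protein binds RNA hairpins outside the ribosome and has a paralog, RPL22L1. It read -0.58, -1.45 and -0.95 on the miR-338-5p arrays and -1.10, -1.23 and -0.60 on the miR-421 arrays, below 0 on every array. The means were -0.99 ± 0.44 (limma adjusted p 0.0332) and -0.98 ± 0.33 (0.0202), which is 0.502 and 0.508 of the control signal. Its dimmer probe read -0.69 and -0.58 (0.0523 and 0.05). The ratio was below 0 under all 18 alternatives in both lines, and the call was kept under 8 for miR-338-5p (adjusted p 0.0242 to 0.119) and 14 for miR-421 (0.0125 to 0.0754). RPL22L1 had no shared direction, at 0.43 ± 0.59 (adjusted p 0.30) and -0.65 ± 0.33 (0.0933).

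The remaining large subunit genes named by rank were mixed. RPL41, which codes for a very short peptide of the ribosome, was higher at 0.83 ± 0.16 for miR-338-5p (limma adjusted p 0.0118) and 0.57 ± 0.19 for miR-421 (0.014). RPL13A, a ribosomal protein that can leave the ribosome to repress inflammatory messages, was higher at 0.73 ± 0.20 (0.0166) and 0.84 ± 0.17 (0.00686). Under the image software's ratio and the authors' table RPL41 and RPL13A passed in neither line. RPL17, which lies near the exit of the peptide tunnel, read -0.49, -0.21 and -0.46 for miR-421, was lower at -0.39 ± 0.15 (0.0216), and sat at -0.039 ± 0.10 for miR-338-5p (0.798). RPL6 had -0.43 ± 0.20 for miR-421 (0.0592) under loess. It was called lower under the image software's ratio at -0.89 (0.0248) and the authors' table at -0.63 (0.0481). RPL23A (-0.11 ± 0.21, 0.694) and RPL27A (-0.12 ± 0.19, 0.393) were among the lowest for miR-338-5p without passing. RPL27A was called lower for miR-421 at -0.32 ± 0.062 (0.0373), from a spot far dimmer than those of the other members.

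Among small subunit genes RPS2 and RPS18 stood highest. RPS2, at the entry of the messenger RNA channel, read 1.05, 1.27 and 0.76 for miR-338-5p and 1.34, 1.26 and 1.25 for miR-421. It was called higher in both, at 1.03 ± 0.26 (limma adjusted p 0.0073) and 1.29 ± 0.05 (0.00289), 2.04-fold and 2.44-fold, and for miR-421 under 18 of 18 alternatives (0.80 to 1.76, adjusted p 0.00278 to 0.0357). RPS18, in the head of the small subunit, read 1.00, 1.31 and 1.01, then 0.83, 1.05 and 1.16. Its means were 1.11 ± 0.18 (0.00591) and 1.01 ± 0.17 (0.00406), but under the image software's ratio neither passed, at 0.68 (adjusted p 0.0783) and 0.50 (0.0867), and the authors' table gave 0.38 (0.207) and 0.13 (0.592).

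RPS27, a zinc finger protein, was higher at 0.98 ± 0.43 for miR-338-5p (limma adjusted p 0.0242), where replicate 2 at 1.48 exceeded replicates 1 and 3 at 0.76 and 0.70. RPS12 was higher at 0.83 ± 0.27 (0.0192), from 0.89, 1.07 and 0.54. RPS20 had nearly the same mean, 0.83, but an SD of 0.74 and did not pass (0.115), with replicate 2 at 1.62 and replicate 3 at 0.15.

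RPS24, needed for maturation of the small subunit's RNA and mutated in some Diamond-Blackfan anaemia families, was the member lowest in the miR-421 line. It read -1.03 in the pool, -0.55 on replicate 1 and -1.58 on replicate 2, against 0.07, 0.30 and -0.31 for miR-338-5p, so the groups did not overlap. The miR-421 mean of -1.05 ± 0.52 was lower than control (limma adjusted p 0.021, 0.482 of the control signal) and stayed below 0 under 18 of 18 alternatives, with the call kept under 14 (adjusted p 0.00823 to 0.085). The miR-338-5p mean was 0.023 ± 0.31 (adjusted p 0.961). RPS13 was also lower for miR-421, at -0.38 ± 0.12 (0.0292), and its second probe gave -0.39 (0.0414). With arrays centred on their medians RPS13 moved to 0.009 (adjusted p 0.97), the upper end of its range from 0.0261.

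RPS6, RPS4X and RPS27A passed in neither line. RPS6, whose phosphorylation is a common readout of mTOR signalling, was at 0.15 ± 0.18 (limma adjusted p 0.432) and -0.083 ± 0.23 (0.618). RPS4X, encoded on the X chromosome, was at -0.072 ± 0.057 (0.717) and -0.20 ± 0.28 (0.221). RPS27A, made as a fusion with ubiquitin, was at 0.36 ± 0.35 (0.237) and 0 ± 0.34 (0.999). FAU, which carries the small subunit protein S30, was called higher for miR-421, at 0.33 ± 0.15 (0.0373), against 0.33 ± 0.14 (0.0612) for miR-338-5p. Under the image software's ratio and the authors' table FAU was not above 0 for miR-421, and its call was lost. GNB2L1, the array's name for the scaffold RACK1, was at -0.36 ± 0.06 (0.0528) and -0.18 ± 0.21 (0.187).

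Large and small subunit genes were close to each other. For miR-338-5p the loess medians were 0.38 over 45 large subunit genes (9 called higher, 1 lower) and 0.40 over 30 small subunit genes (11 higher, 0 lower). For miR-421 they were 0.19 (11 higher, 3 lower) and 0.33 (11 higher, 2 lower). Large minus small came to -0.12, 0.045 and 0.019 on the miR-338-5p arrays and to -0.036, -0.17 and -0.14 on the miR-421 arrays. The sign thus varied among the miR-338-5p arrays and was negative on 3 of 3 miR-421 arrays. The ratio of the image software gave -0.046, 0.095 and -0.005, then -0.084, -0.11 and -0.16, again all negative for miR-421. With the mean of a gene's probes in place of its brightest one, the difference of the group medians for miR-421 went from -0.14 to -0.008 and that for miR-338-5p from -0.013 to 0.085. No test was made of this contrast.

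Spot brightness, the mean log2 intensity of both dyes, set the members apart from most genes. Of the 75, 74 lay in the brightest 10% of the tested genes, and 72 among the 433 genes of the brightest 2%, where the spots ran from 13.8 to 16.2. RPL27A, at 6.47, was the exception. Brightness is a property of the spot here and ranks no gene above another in amount. The other 361 genes of the brightest 2% had loess medians of 0.16 (miR-338-5p) and 0.29 (miR-421), beside 0.40 and 0.29 for the 72 members there. For miR-421 the members thus had the same median as other genes of their brightness, and for miR-338-5p a higher one. Of those other bright genes 9.97% were called higher and 1.11% lower for miR-338-5p, and 38.8% and 6.65% for miR-421. Of the 75 members 20 were called higher for miR-338-5p, a larger share, and 22 for miR-421, a smaller share. In the image software's ratio the other bright genes had -0.011 and 0.038 and the members 0.13 and -0.056.

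Brighter spots within the group also tended to have higher ratios. Spearman's rho between brightness and ratio over the 75 genes was 0.55, 0.26 and 0.46 on the miR-338-5p arrays and 0.36, 0.32 and 0.42 on the miR-421 arrays under loess. Under the image software's ratio it was 0.38, 0.062 and 0.29, then 0.23, 0.085 and 0.30. All 12 values were above 0. The genes share arrays and dyes and are not independent, so these figures describe the arrays and carry no test. Cy5 enters both brightness and ratio, so these are not separate measures. The base composition of the probes did not track the ratio as closely, with rho for GC percent of 0.048 and 0.20 over 71 genes, whose brightest probes held 35% to 55% GC.

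**Figure D3:**
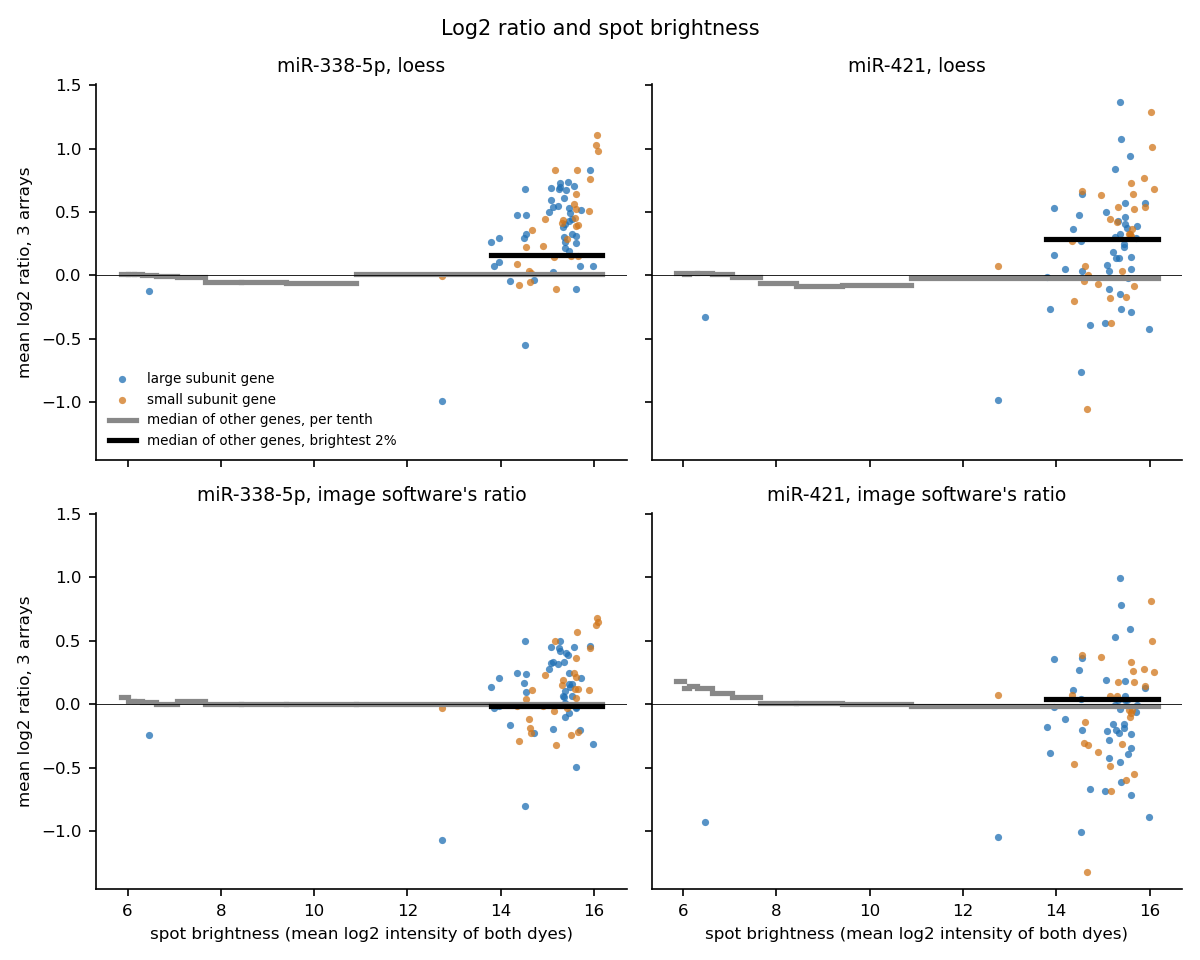
Mean log2 ratio over 3 arrays (vertical axis) against spot brightness (horizontal axis, mean log2 intensity of both dyes) for the 75 genes, with medians of all other genes in 10 classes of brightness in grey and in the brightest 2% in black. The members crowd at the right edge, and under loess the black bar there lies at 0.16 (miR-338-5p) and 0.29 (miR-421), against -0.011 and 0.038 under the image software's ratio.

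Probes for the same gene were set against each other by ratio. Of 43 genes with more than 1 tested probe, the brightest probe had a higher ratio than the median of the gene's other probes in 38 for miR-338-5p (median gap 0.24) and in 34 for miR-421 (0.19). Among 34 genes, using only probes above a brightness of 13, the counts were 27 and 28. Under the image software's ratio they were 31 and 26 of 43. The gap differed by gene. The 3 RPS18 probes, from bright to dim, read 1.11, 0.63 and 0.22 for miR-338-5p and 1.01, 0.40 and 0.053 for miR-421, and the last 2 of these are the RPS18 sequences printed above. The RPS2 probes read 1.03, 0.76 and 0.17, then 1.29, 1.45 and 0.81. The RPLP0 probes stayed close, at 0.70 and 0.58 and at 0.94 and 0.88. The brightest probe is picked partly by Cy5, which also enters its ratio. Probes can also differ in the transcripts they reach, and what part brightness has in these gaps was not tested.

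**Figure D4:**
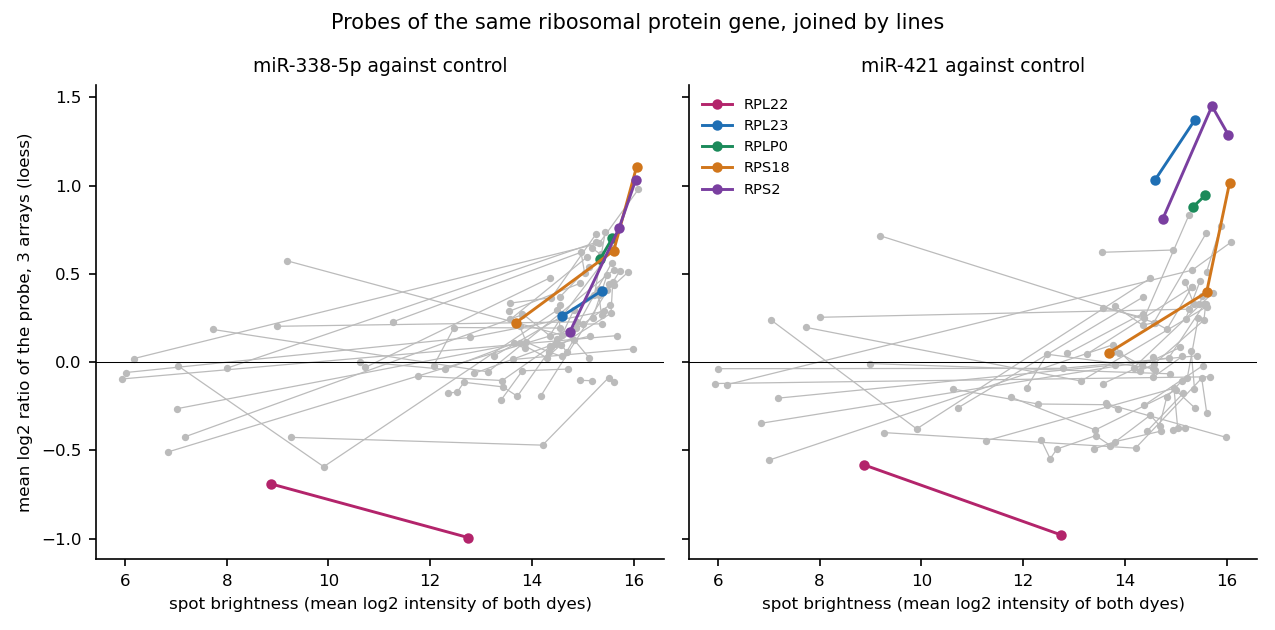
Mean log2 ratio of each tested probe (vertical axis, loess, 3 arrays) against its spot brightness (horizontal axis, mean log2 intensity of both dyes), with lines joining probes of the same gene for the 43 genes that have several; 5 genes are coloured. The RPS18 line climbs from 0.22 to 1.11 for miR-338-5p, the RPLP0 line is short and flat, and both RPL22 probes lie below 0.

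One array held a pattern by chromosome that was noticed after the values were seen. On miR-338-5p replicate 2, the 10 members on chromosomes 3 and 8 (RPL14, RPL15, RPL24, RPL29, RPL32 and RPL35A, then RPL7, RPL8, RPL30 and RPS20) read 0.69 to 1.62, with a median of 1.33. The other 65 had a median of 0.51, a gap of 0.82, and 7 of the 10 highest members on that array were among the 10. On the other 5 arrays the gap was between -0.048 and 0.035. The gap on replicate 2 was 0.88 under the image software's ratio and 0.77 under the authors' table. Genes outside the group moved alike: among bright genes, the 302 on chromosome 3 and the 219 on chromosome 8 had medians of 0.22 and 0.16, the highest of all chromosomes on that array, beside 0.024 for the next.

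This pattern bears on how the members are read in the miR-338-5p line. RPS20, RPL35A, RPL8, RPL30, RPL32, RPL24 and RPL7 had means between 0.50 and 0.83 and none passed, each with an SD of at least 0.60. RPL7 read 0.26, 1.20 and 0.05, and RPL35A read 0.42, 1.55 and 0.11. Without replicate 2 the median of the 75 genes for miR-338-5p was 0.24 in place of 0.39. No cause was tested.

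**Figure D5:**
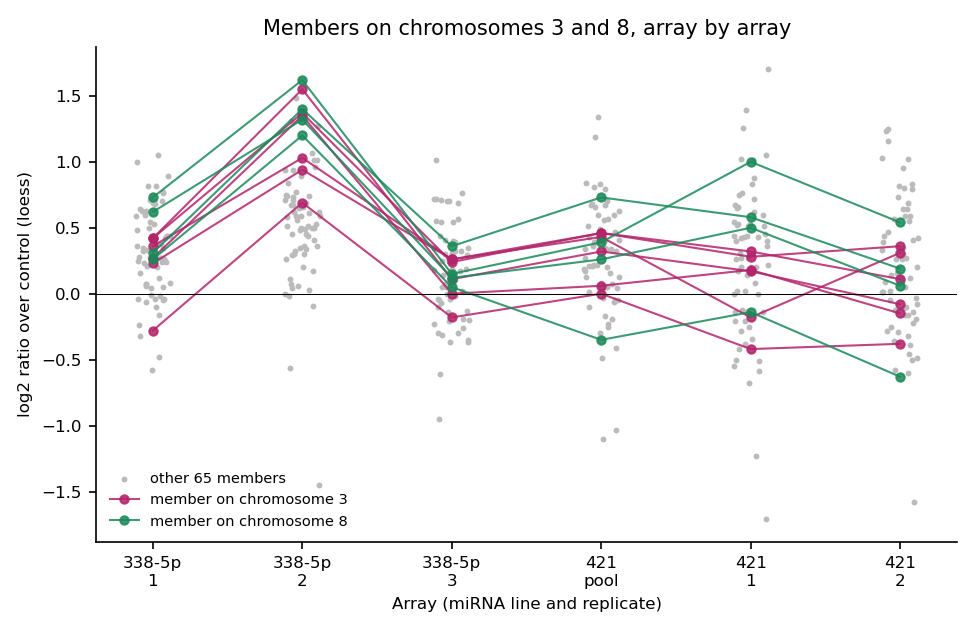
Log2 ratio over control under loess (vertical axis) of the 75 members on each array (horizontal axis), with the 6 members on chromosome 3 and the 4 on chromosome 8 joined by lines and the other 65 in grey. On miR-338-5p replicate 2 the coloured lines rise to between 0.69 and 1.62, and on the other 5 arrays they lie among the grey points.

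A smaller tilt concerned chromosome 19, which holds 12 members. Their medians on the miR-421 arrays were 0.58, 0.47 and 0.62, and genes outside the group on that chromosome had 0.063, 0.24 and 0.19, the highest of all chromosomes on replicates 1 and 2. Such member values were not particular to chromosome 19. On the miR-421 arrays members on chromosome 6 had 0.50, 0.65 and 0.64, while other genes there had -0.063, -0.17 and -0.092. On the miR-338-5p arrays the 12 members on chromosome 19 had 0.26, 0.49 and 0.28. Under loess the member medians exceeded those of the other genes on 6 of 6 arrays. The image software's ratio turned this on miR-421 replicate 1, with 0.054 for the members and 0.28 for the others.

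The start of the messages was read because most of the family share a pyrimidine start. In 21-base windows, 10 bases to either side of the RefSeq start (GRCh38.p14), 3 short forms of a cytosine followed by pyrimidines were searched on both strands. The letters CTTTT were found in 13 of the 60 members with a window. The form CTTCC was found in 24 of them. A further form, CTTTC, was found in 27, and a window can hold several forms, which can overlap. At least one was found in 45 of 60 (75%), against 12.9% of 27305 genes with one, and on the opposite strand in 3.3% against 9.8%. The annotated start is the middle base of a window, and a match could lie on either side of it. The RPS18 match below lies before the start, and RPLP0, without a match, has a cytosine followed by pyrimidines there. The search thus does not separate genes with a pyrimidine start from those without. Windows of named genes are shown with the match in capitals, 4 with it and RPLP0 without.
RPS18, chr6:33272065-33272085, plus strand: caCTTCCgctctctcttccac
RPLP1, chr15:69452808-69452828, plus strand: ggcgcgagagcccCTTTCctc
RPS24, chr10:78033853-78033873, plus strand: aatcgtggttctCTTTTcctc
RPL22, chr1:6199585-6199605, minus strand: cgctcacctccCTTTCtaact
RPLP0, chr12:120201101-120201121, minus strand: ggcgcgaggcccttctctcgc
The letters were found in genes of both directions, such as RPS18 above and RPL22 below control. Median ratios were 0.32 with the letters and 0.43 without for miR-338-5p, and 0.19 and 0.30 for miR-421, over 45 and 15 genes. A missing match says only that these letters are not in the window.

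Matches to the miRNA seeds were rare in the member probes. The letters ATATTGT, complementary to the miR-338-5p seed, were found in 2 of 151 probes, one each of RPL21 and RPL5, against 0.478% of all 58201 probes. The letters CTGTTGA, complementary to the miR-421 seed, were in 0 of 151, against 0.558%. Probes cover a small part of a message, so this says nothing about sites elsewhere. The matching probes are not the brightest of their genes. For miR-338-5p the RPL21 probe read -0.11 ± 0.39 (limma adjusted p 0.685) and the RPL5 probe -0.10 ± 0.35 (0.669), while the brightest probes, which lack the letters, read 0.024 ± 0.43 (0.942) and 0.22 ± 0.37 (0.379).

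Other genes of the translation apparatus were read beside the 75. Of 77 tested genes for proteins of the mitochondrial ribosome, which makes the proteins encoded by mitochondrial DNA, 1 was called higher and 6 lower for miR-338-5p (median -0.013), and 2 higher and 27 lower for miR-421 (median -0.26). The miR-338-5p calls were 0 in both directions under the image software's ratio and the authors' table, where the median turned to 0.012 and 0.019. For miR-421 the lowest were MRPL50 at -1.44 ± 0.14 (limma adjusted p 0.00189) and MRPL3 at -1.37 ± 0.13 (0.00318). Their lower counts for miR-421 were 15 under the image software's ratio, 15 under the authors' table and 15 with median centring, beside 10.1%, 10.3% and 7.92% of all genes, and the median stayed below 0, from -0.30 to -0.14. On the same miR-421 arrays the cytosolic median changed sign under those deposited ratios, and the mitochondrial one did not under these 3 scalings.

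Among 19 translation factors and other genes whose messages carry the pyrimidine start, 0 were called higher and 1 lower for miR-338-5p. In either direction 6 had an unadjusted limma p under 0.05 there, beside 6013 of all 21694 genes. For miR-421 3 were called higher and 4 lower, beside 10% and 12.6% of all genes. The medians were 0.056 and -0.26. For miR-338-5p the call was lost and the median turned to -0.051 and -0.13 under the image software's ratio and the authors' table. For miR-421 each of these readings called 1 higher, and they called 4 and 5 lower, with medians of -0.374 and -0.375. EEF2, which drives translocation, was higher for miR-421 at 0.93 ± 0.24 (limma adjusted p 0.0143), and EEF1A1, which delivers transfer RNAs, was at 0.36 ± 0.11 (0.37) and 0.052 ± 0.65 (0.894). TPT1 was lower for miR-421 at -0.51 ± 0.11 (0.0108), against 0.27 ± 0.15 (0.0839) for miR-338-5p. PABPC1, the poly(A)-binding protein, was at 0.057 ± 0.48 (0.89) and -0.26 ± 0.32 (0.395). NAP1L1, a histone chaperone, was lower in both, at -1.07 ± 0.26 (0.0493) and -1.33 ± 0.67 (0.0178).

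Of 8 paralogs of the ribosomal protein genes, 0 were higher in either line, and 1 was lower in the miR-338-5p line and 3 in the miR-421 line, with medians of -0.10 and -0.43. The lower counts were 0 and 1 under the image software's ratio and 0 and 2 under the authors' table. Under loess RPL7L1 was lower in both, at -0.54 ± 0.11 (limma adjusted p 0.0132) and -0.47 ± 0.089 (0.00966). RPL36AL, a close copy of RPL36A, was lower for miR-421 at -0.44 ± 0.22 (0.0379), and RPS27L, a p53 target, was at -0.21 ± 0.30 (0.512) and -0.42 ± 0.41 (0.133). Ribosomal protein genes have many processed pseudogenes, and signal from near-identical copies cannot be told apart from that of the gene on these probes.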

How the data were processed

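Gene expression was measured on 6 Agilent 2-colour arrays of 60901 gene spots. Per the file headers, the authors used Feature Extraction 11.5.1.1 to read the scans. Each spot has a deposited intensity per dye, as mean signal and median local background without normalization, and a log10 ratio (Cy5 over Cy3) that the software had background-subtracted and dye-normalized and that was turned into log2 here. The deposited series table holds log2 ratios per gene name. For 32342 genes with 1 probe it followed the image software's ratio (r from 0.989 to 0.999), so its scale and direction are settled, but its column medians ran from -0.16 to 0.034, and how probes of a gene were joined stays unknown (gaps to their mean of up to 1.08).

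From the intensities, normexp (offset 50) and loess (span 0.3) were run in R 4.3.3 with limma 3.58.1. Outlier spots were left out, and 27497 probes passed the filter. All 6 arrays entered 1 fit with a mean per line, eBayes (prior degrees of freedom 2.05) and two-sided tests, adjusted by Benjamini-Hochberg over probes at 0.05. With 3 arrays a line, their number limits the precision. Counts and background shares use 1 probe per gene, the brightest.

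Members and lists were chosen with earlier results of these data known. Named genes were the 6 highest and 6 lowest members in each comparison with control, the 4 highest and 4 lowest in the difference, RPLP0, RPLP1, RPLP2, RPS6, RPL5, RPL11, RPS4X, RPS27A, and every called member where 10 or fewer were called. RPSA, also in that rule, was not analysed here. Others were singled out after their values were seen. The fit was tested on simulated data. Alternatives covered background, normalization, filter, outliers, probe per gene, variance model, arrays used and the replicate block. Probe positions are hg19 per the file headers. RefSeq sequences are GRCh38.p14. No exon or UTR annotation was used here. Results for some genes are not reported here.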

Additional observations from a re-analysis of the deposited data

Results flagged for a closer look

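For 2 of the 75 genes, under loess, the 3 arrays of one line lay above 0 and the 3 arrays of the other below it. The share over all tested genes was not counted, so this count cannot be called high or low for the members. RPL7, a large subunit protein on chromosome 8, read 0.26, 1.20 and 0.05 for miR-338-5p and -0.35, -0.14 and -0.63 for miR-421, a difference of 0.875 (limma adjusted p 0.318, range over the alternatives 0.254 to 0.635). RPL36A read 0.27, 0.50 and 0.02, then -0.05, -0.12 and -0.28, a difference of 0.415 (limma adjusted p 0.293). Neither difference passed the test. Under the image software's ratio RPL7 read -0.10 and RPL36A -0.17 on miR-338-5p replicate 3, so the sides were no longer opposite there. With 3 arrays a line, single arrays were not tested for standing apart.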

How the results depend on the processing

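The direction of the group's median held under every alternative for miR-338-5p (main value 0.39), moving most under the image software's ratio (0.117) and the authors' table (0.07). With the mean of a gene's probes in place of the brightest it was 0.296. For miR-421 (main 0.271) it turned below 0 under both (-0.066 and -0.102) and was 0.643 with median centring, 0.397 with a loess span of 0.7 and 0.141 with the mean of a gene's probes. The difference of the lines (0.164) became -0.124 with median centring. Members higher for miR-338-5p (20) numbered 6 with background subtracted, 0 with the trended and robust variance, the authors' table and the ratio of the image software (45, 4 and 9 at an unadjusted p under 0.05), 13 with no filter and 3 with own arrays only, and 5 to 23 with an array left out. Over all genes the share called higher for miR-338-5p was 3.17% with background subtracted, 2.42% with no filter and 0.327% with own arrays only. It was 2.53% under the authors' table, 2.16% under the image software's ratio, and 0.71% to 5.68% with an array left out. The trended and robust variance called 0% of all genes in either direction for miR-338-5p. Shares of all genes at an unadjusted p were not counted under any alternative. Members lower for miR-338-5p (1) numbered 0 under median centring, the authors' table, no filter, the trended and robust variance and own arrays only. They numbered 0 to 2 with an array left out. Shares called lower over all genes were 3.8%, 2.01%, 3.35%, 0% and 0.507% in that order, and 0.894% to 8.16% with an array left out. Members higher for miR-421 (22) numbered 10 with background subtracted, 36 with median centring, 4 under both deposited ratios, and 10 to 24 with an array left out. Over all genes the shares called higher were 9.64%, 6.96%, 9.4% and 9.36%, and 0.987% to 8.89%. Members lower for miR-421 (5) numbered 3 with background subtracted, a span of 0.7 or own arrays only. They numbered 0 with median centring and 0 to 5 with an array left out. Of all genes, 11%, 12.4%, 9.12% and 7.92% were called lower in that order, and 1.44% to 12% with an array left out. RPS13 for miR-421 moved to 0.009 with median centring.

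Large minus small moved to 0.085 (miR-338-5p, main -0.013) and -0.008 (miR-421, main -0.142) with the mean of a gene's probes, and to between -0.205 and -0.061 for miR-421 with an array left out. The rank correlation with brightness (0.464 and 0.386) was 0.278 and 0.209 under the image software's ratio, 0.237 and 0.158 under the authors' table, and 0.492 for miR-421 with median centring. The cause of these moves was not tested. With the replicate numbers 1 and 2 as a block over 4 arrays, the difference had a median of 0.268 and called 0 members (10 at an unadjusted p under 0.05 by limma, 7 higher and 3 lower). Deviations of same-numbered arrays correlated at -0.141 and -0.212. Each value rests on a single pair of arrays, so it cannot show whether same-numbered samples share a culture, control RNA or batch. The labels do not say.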
